A study of Homo sapiens with 24 samples.

Results

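Retained-intron transcripts are annotated transcripts of a gene that keep intronic sequence which other transcripts of the same gene remove. They were described here in MV4-11, a line of human acute myeloid leukaemia cells that is long established in culture and carries an MLL fusion. The members were the transcripts of the deposited transcript table with the GENCODE 29 biotype retained_intron that were selected on their own level, at least 1 CPM (counts per 1000000 counts of the library) in at least 3 of 24 libraries. The rule kept 9833 of 27118 retained-intron transcripts paired with a gene, out of 178398 transcripts in the table, of which 167049 were paired. The members lay in 4670 genes, 2382 of which held 1 member, while DYNC1H1, the heavy chain of cytoplasmic dynein, held 19.

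All cells carried the genotype PRMT5 +/+, and poly(A)-selected RNA was sequenced from 8 treatment groups of 3 libraries (A, B and C). The groups were DMSO, the solvent control; PRT220 (3 nM), an inhibitor of the arginine methyltransferase PRMT5; GSK-LSD1 (10 nM), an inhibitor of the histone demethylase LSD1, labelled LSD1; both of these; MS023, which inhibits the type I arginine methyltransferases; MS023 together with GSK-LSD1; and the compounds MC4455 and MC4491, each alone. The first 4 groups were treated for 3 days, to find expression changes that go with the joint action of PRMT5 and LSD1 inhibition. Doses and times were not given in the sources used here for the groups with MS023, MC4455 or MC4491, and nothing said whether the 3 libraries of a group were grown separately, so a p-value speaks for the spread of these samples alone.

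During splicing the spliceosome recognises the 5′ splice site, where the U1 snRNP pairs with the last bases of the exon and the first of the intron, and the 3′ splice site at the end of the intron. A polyadenylated transcript that keeps an intron is often held in the nucleus or degraded through nonsense-mediated decay, so it adds to the RNA of a gene but seldom to its protein. PRMT5 with its partner WDR77 methylates arginines of the Sm proteins, which form the core of the spliceosomal snRNPs, and intron retention is a known response of cells to PRMT5 inhibition.

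Introns behind some of the clearest differences are shown first, because a reader can see their splice sites directly. Only short introns between coding exons were printed, so their lengths do not stand for those of the other members. Coordinates are GRCh38, bases come from the GENCODE 29 transcript sequences, each line runs 5′ to 3′ on the strand of the gene, and capitals mark the first 6 bases (the intron side of the 5′ splice site) and the last 3 bases (the 3′ splice site). PAXX-208, the member whose mean share rose most with PRT220 among those named here, holds 2 whole introns of 224 and 78 bases, chr9:136992701-136992924 and chr9:136992975-136993052, plus strand, both between coding exons.
PAXX-208, first intron: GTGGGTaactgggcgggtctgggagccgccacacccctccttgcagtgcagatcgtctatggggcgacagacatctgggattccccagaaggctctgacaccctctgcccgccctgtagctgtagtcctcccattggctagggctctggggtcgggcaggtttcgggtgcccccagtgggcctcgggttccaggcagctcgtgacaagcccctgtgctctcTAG
PAXX-208, second intron: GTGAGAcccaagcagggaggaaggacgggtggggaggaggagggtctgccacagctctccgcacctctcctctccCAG
ANKZF1-211 holds 3 whole introns, of which the 2 shorter ones are shown, at chr2:219235313-219235473 (161 bases) and chr2:219235586-219235707 (122 bases), plus strand.
ANKZF1-211, 161-base intron: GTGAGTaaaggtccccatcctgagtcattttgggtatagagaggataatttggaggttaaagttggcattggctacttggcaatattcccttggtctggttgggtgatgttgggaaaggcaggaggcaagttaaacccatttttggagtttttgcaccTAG
ANKZF1-211, 122-base intron: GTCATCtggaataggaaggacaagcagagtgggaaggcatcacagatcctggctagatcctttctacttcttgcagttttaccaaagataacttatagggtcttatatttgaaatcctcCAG
RGL2-243 (chr6:33293525-33293603), PPP1R35-205 (chr7:100435768-100435847) and NT5C-213 (chr17:75131106-75131180) hold short introns on the minus strand, of 79, 80 and 75 bases. NT5C-213 also holds another whole intron, of 252 bases, which is not shown.
RGL2-243: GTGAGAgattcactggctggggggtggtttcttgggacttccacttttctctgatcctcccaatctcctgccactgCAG
PPP1R35-205: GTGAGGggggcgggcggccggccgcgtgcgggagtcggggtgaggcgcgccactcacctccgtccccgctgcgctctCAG
NT5C-213: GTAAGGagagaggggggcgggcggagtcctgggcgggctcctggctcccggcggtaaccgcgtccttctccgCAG
SUN1-206 is shown as a contrast, since its share fell with PRT220: its intron of 142 bases lies at chr7:852668-852809, plus strand. Its fall was close to the limit of the test. OGT-210 and CCDC189-205, which also fell, hold introns that do not open with GTAAGT, as given further on.
SUN1-206: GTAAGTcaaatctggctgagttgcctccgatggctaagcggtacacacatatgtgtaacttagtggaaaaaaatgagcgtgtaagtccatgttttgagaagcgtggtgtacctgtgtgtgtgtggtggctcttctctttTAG

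The exon side of these 5′ splice sites is needed to read them, so the last 3 exon bases follow in lower case before the first 6 intron bases in capitals. PAXX-208 had ctcGTGGGT and cagGTGAGA, ANKZF1-211 had aggGTTTGA (its 537-base intron), gcaGTGAGT and cagGTCATC, RGL2-243 had agaGTGAGA, PPP1R35-205 had aggGTGAGG, and NT5C-213 had ggaGTAAGG and gcgGTAGGG. The site of SUN1-206 was tagGTAAGT, and those of SREK1-206, another member whose share fell, were cagGTAAGT and cagGTGAGA. The letters GTAAGT at the start of an intron pair fully with U1 snRNA, as does a G at the last exon base, and the shares of both features over all members are given further on.

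As annotated, 9741 members belonged to protein-coding genes and 92 to other genes. The median member had 4 exons, a length of 1283 bases, a mean level of 2.09 CPM and a mean share of 3.2% of the counts of its gene, where the share is the count of the transcript over the summed counts of all transcripts of that gene and is not divided by length. A mean share under 5% was found for 6103 members and one of at least 50% for 330. Every library reached the floor for 5098 members, and libraries of 1 group alone carried 4 members over it. Just inside the rule, 308 members were at 1 CPM in exactly 3 libraries, with a median mean level of 0.662 CPM, and just outside it 505 transcripts were at 1 CPM in exactly 2, with 0.613 CPM.

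Not every member holds an intron whole. Of the 9833 members, 4443 contained at least 1 whole intron of another transcript of the gene within 1 exon, 7413 in all and 6205 different ones. The other 5390 held none, and 5258 of these start or end inside an intron of a protein-coding transcript. These carry a part of such an intron, and whether that part borders an exon was not measured. The introns of protein-coding transcripts in the host genes, 87451 in number, had a median of 1388 bases. The whole introns held by tested members had a median of 272 bases.

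Library totals ran from 32495446 to 61090593 counts, and 0 of 24 pairs within a group held identical values. All 12 myeloid markers checked had a median of at least 1 CPM, among them CD33, FLT3, MPO and SPI1, and of 16 markers of other cell types 1 did. Levels of the snoRNP gene RRP9 split the libraries in a way the labels do not give: 8 libraries were under 5 CPM (DMSO C, all 3 of PRT220, PRT220 with GSK-LSD1 C, MS023 A and C, and MS023 with GSK-LSD1 B). Since all PRT220 libraries are low in RRP9 and all of GSK-LSD1, MC4455 and MC4491 are not, that split cannot be told apart from the treatment within those groups, and counts from a fit with a term for it are given where they differ by over 1.5 times or in direction.

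The members as a whole made up 8.46% ± 0.128 (SD, n = 3) of the counts of their genes in DMSO, with 8.52, 8.55 and 8.31% in libraries A, B and C. With MC4455 the share was 9.6, 10.5 and 10.1%, and with MC4491 it was 9.94, 9.65 and 9.5%. All 6 of these libraries were above all 3 DMSO libraries. The 3 PRT220 libraries were at 8.48, 8.95 and 9.5%, so that 1 of them lay inside the DMSO range. PRT220 with GSK-LSD1 gave 10.5, 9.38 and 8.98%, GSK-LSD1 alone 9.04, 8.64 and 8.79%, and both groups lay above DMSO in every library. MS023 gave 8.39, 9.44 and 8.06%, overlapping DMSO, and MS023 with GSK-LSD1 9.43, 8.41 and 10.1%, also overlapping. No test is given for this summed share, because it is a score over the members.

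In every group that held both kinds of library, those low in RRP9 had the lower summed share. The 8 low libraries lay between 8.06 and 9.5% and the 16 others between 8.52 and 10.5%. Among the libraries not low in RRP9, 2 of PRT220 with GSK-LSD1 were at 9.38 and 10.5% against 8.52 and 8.55% in 2 of DMSO, and the part of RRP9 in these values was not tested further. In these bulk libraries more retention per cell and more cells with retention cannot be told apart.

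**Figure D1:**
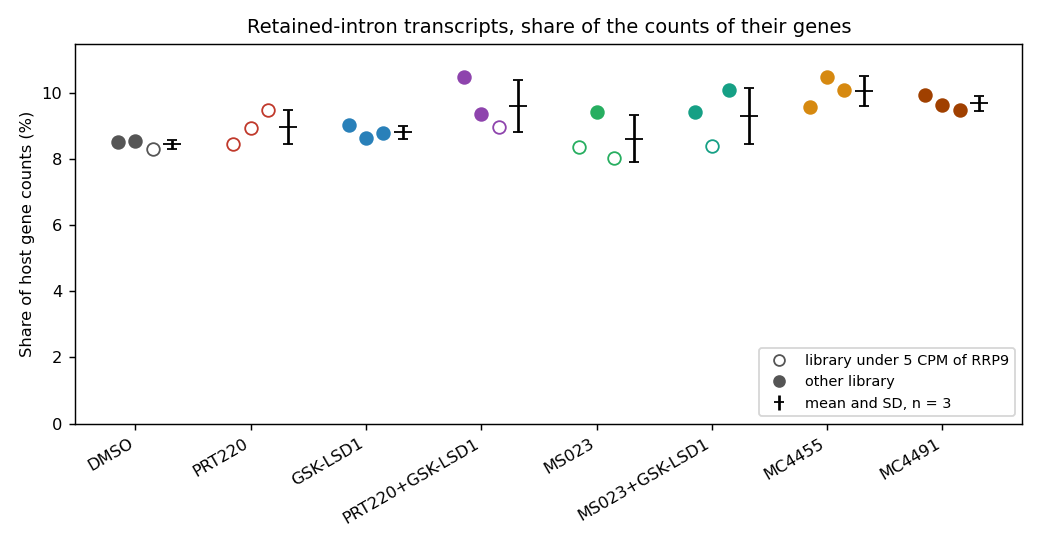
Summed counts of the 9833 members as a percent of the counts of their host genes (vertical axis), for each of the 24 libraries by treatment group, with open symbols for the 8 libraries low in RRP9 and bars for mean and SD (n = 3). The MC4455 and MC4491 libraries sit between 9.5 and 10.5%, above the 3 DMSO libraries at 8.31 to 8.55%, while the PRT220 libraries run from 8.48 to 9.5%.

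Changes in the use of single members were tested with limma's voom and diffSplice, which compare the log2 change of a transcript with that of the other transcripts of its gene; the log2 usage change below is that difference. A member was called at an adjusted p under 0.05, with Benjamini-Hochberg adjustment over all 74228 transcripts tested in 11425 genes, and 9733 of the members were among them while 100 were not tested. All 7 comparisons with DMSO share the same 3 DMSO libraries, so calls in several of them are not independent. A second test, limma on the log2 odds of the share (the transcript against the rest of its gene, with 0.5 added to both), weighs only the spread of the share between libraries, and its counts are given for every comparison.

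With PRT220, 367 members rose in share and 90 fell. The 367 were 3.77% of the members tested, against 2.13% of all transcripts called higher, and the 90 were 0.925% against 1.98% of all transcripts called lower. The median log2 usage change was 0.04 over the members and -0.01 over all transcripts, and both lie near 0. With a term for RRP9 the member median was 0.16, at 375 members higher and 64 lower, and within the 8 libraries low in RRP9 it was 0.14. By the log2 odds of the share, 409 members (4.2%) were higher and 58 (0.596%) lower, against 1.41% and 1.04% of all transcripts. Both tests called 230 of the same members higher and 24 lower. The diffSplice calls in both directions together, 457, came to 268 without PRT220 C, and to 162 within the 8 libraries low in RRP9, which leave DMSO C as the only control and which share the spread of the other groups. Among transcripts at the same floor, 915 of 28663 protein-coding ones were higher (3.19%) and 1126 lower (3.93%). The floor itself bears on these shares, since of all 16851 retained-intron transcripts tested, with no floor, 2.28% were higher and 0.546% lower, and no test is given for the difference from other transcripts.

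PAXX-208 belongs to PAXX, a DNA end-joining factor related to XRCC4 and XLF, and had the largest rise in mean share among the members named by the rule for this comparison, which asks for libraries that do not overlap. Its share was 40.3, 37.1 and 42.5% in the DMSO libraries and 74.5, 77.8 and 72.5% in the PRT220 libraries. The log2 usage change was 2.05 with a standard error of 0.254 (diffSplice adjusted p = 6.27e-10, log2 odds adjusted p = 3e-06). With PRT220 the member thus held most of the counts of PAXX, whose level was 13.2 ± 0.92 CPM in DMSO and 19.1 ± 1.53 CPM with PRT220 (SD, n = 3).

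ANKZF1-211, of the ribosome quality control factor ANKZF1, was at 22.5, 24 and 17.5% of its gene in DMSO and at 43.9, 40.3 and 54.6% with PRT220. The log2 usage change was 1.58 ± 0.19 (SE, diffSplice adjusted p = 6.14e-12). The gene itself was at 49.8 ± 2.34 CPM in DMSO and 82.8 ± 2.41 CPM with PRT220 (SD, n = 3), so the higher share was one of a larger total. SPATA20-204, of the thioredoxin-like gene SPATA20, was at 15.0, 15.6 and 14.4% in DMSO and 37.9, 42.7 and 43.7% with PRT220, at gene levels of 41.7 ± 2.09 and 41.9 ± 1.37 CPM (SD, n = 3). Here the share was higher at nearly the same level of the gene (log2 usage change 1.99, SE 0.278, diffSplice adjusted p = 6.37e-09). ANKZF1-211 and SPATA20-204 were also called by edgeR's diffSpliceDGE, which called few members, with adjusted p = 0.0127 and 0.0253.

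The members with the short introns shown above had low shares in DMSO. RGL2-243, of the Ral exchange factor RGL2, was at 12.9, 17.8 and 6.81% in DMSO and 35.5, 41.2 and 40.0% with PRT220. PPP1R35-205, of a protein phosphatase 1 regulatory subunit of the centriole, was at 6.41, 11.7 and 15.8% and then 42.6, 35.1 and 36.1%. NT5C-213, of a cytosolic deoxyribonucleotidase, was at 14.4, 17.4 and 17.6% and then 42.4, 47.7 and 46.2%. In each case the lowest PRT220 library was above the highest DMSO library by more than the range of the DMSO libraries. Their log2 usage changes were 2.17, 2.24 and 1.92, with diffSplice adjusted p of 1.05e-06, 7.7e-09 and 1.06e-07.

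Members with longer introns were among the calls as well. TMEM94-217, of a multi-pass membrane protein, holds 1 whole intron of 388 bases and was at 36.2, 31.9 and 39.3% in DMSO against 53.9, 57.9 and 59.7% with PRT220. JAML-212, of a leukocyte adhesion molecule, holds introns of 1146 and 382 bases and was at 28.7, 30.9 and 31.4% against 51.2, 58.5 and 58.8%. JAML as a gene was at 7.56 ± 1.09 CPM in DMSO and 27.4 ± 3.26 CPM with PRT220 (SD, n = 3), so this higher share too was one of a larger total. DPY19L2P2-206, of a transcribed pseudogene of the DPY19L2 family, was at 36.9, 30.9 and 30.3% against 53.9, 63.9 and 61.1%, and its counts are uncertain because family copies may share reads.

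Fewer members fell with PRT220. SREK1-206 belongs to SREK1, an SR-related splicing factor, and holds introns of 685 and 5153 bases. Its share was 27.7, 29.3 and 24.9% in DMSO and 17.7, 19.1 and 20.1% with PRT220, without overlap (log2 usage change -0.65, SE 0.114, diffSplice adjusted p = 6.77e-06, log2 odds adjusted p = 0.0107). OGT-210, of the O-GlcNAc transferase OGT, keeps an intron of 1575 bases and held 51.0% ± 2.37 of its gene in DMSO and 43.5% ± 0.755 with PRT220 (SD, n = 3), with diffSplice adjusted p = 0.000245. SUN1-206, of the inner nuclear membrane protein SUN1, was at 30.3, 29.9 and 25.9% and then 22, 19.6 and 16.6%. The falls of SREK1-206 and SUN1-206 were not called within the 8 libraries low in RRP9 (adjusted p = 0.27 and 0.88). The call of SUN1-206 was close to the limit (diffSplice adjusted p = 0.0482, log2 odds adjusted p = 0.0451) and was lost in the fit with a term for RRP9 (adjusted p = 0.14).

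SEMA6B-203, of the semaphorin SEMA6B, fell in 5 of the 7 comparisons with DMSO. Its share was 55.6, 48.4 and 44.2% in DMSO, 29.6, 26.8 and 32.6% with PRT220, 31.4, 27.6 and 25.9% with GSK-LSD1 and 24.7, 16.7 and 17.2% with both. The log2 usage changes were -1.19, -1.28 and -1.99 with diffSplice adjusted p of 0.00072, 0.000495 and 8.83e-09, and the fall with GSK-LSD1 alone did not pass the log2 odds test (adjusted p = 0.101). Within the 8 libraries low in RRP9 the fall with PRT220 was not called (adjusted p = 0.162). SEMA6B as a gene was at 12.9 ± 1.39 CPM in DMSO and 38.1 ± 2.53 CPM with both (SD, n = 3), and SEMA6B-203 holds no whole intron.

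**Figure D2:**
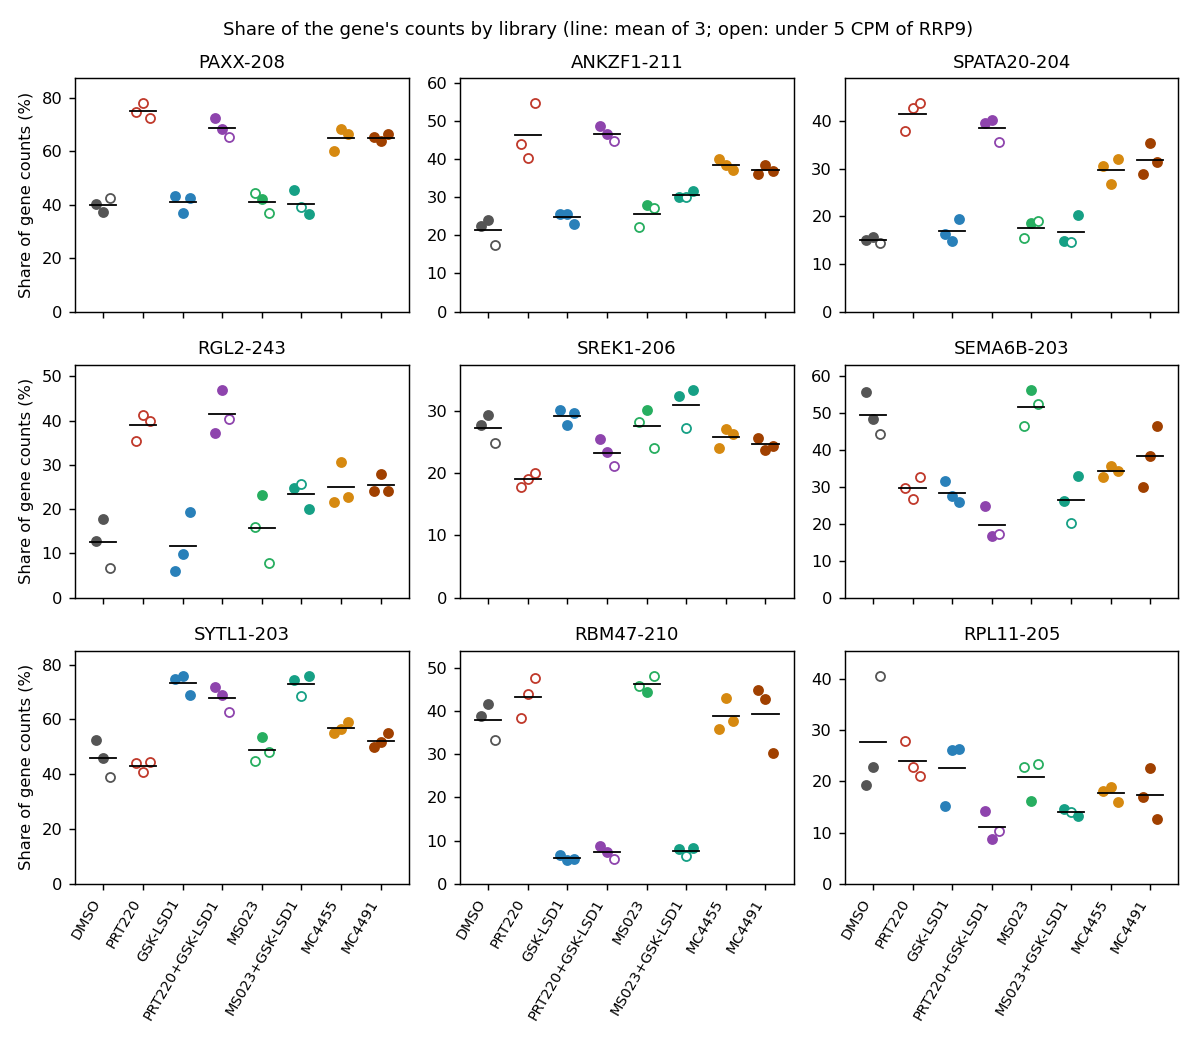
Share of the counts of its gene, in percent, for 9 members in each of the 24 libraries by treatment group, with open symbols for the 8 libraries low in RRP9. PAXX-208, ANKZF1-211, SPATA20-204 and RGL2-243 stand above DMSO in both groups with PRT220 and in MC4455 and MC4491, SYTL1-203 and RBM47-210 move in the 3 groups with GSK-LSD1, and RPL11-205 in DMSO C stands apart at 40.6%.

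In the combination of PRT220 with GSK-LSD1, 423 members (4.35%) rose and 88 (0.904%) fell, against 2.26% of all transcripts higher and 2.46% lower. The median log2 usage change was 0.20 over the members and 0.04 over all transcripts. By the log2 odds, 580 members (5.96%) were higher and 50 (0.514%) lower, against 2.03% and 1.38% of all transcripts. Among protein-coding transcripts at the same floor the count ran the other way, with 938 higher (3.27%) and 1424 lower (4.97%). The calls in both directions together, 511, came to 296 without library A of the combination. Without the libraries low in RRP9, 298 members were called in this comparison, and within the 8 low libraries, which leave 1 library in each of DMSO and the combination, 42 were.

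The members that led with PRT220 were high in the combination as well. PAXX-208 was at 72.2, 68.4 and 65.2%, ANKZF1-211 at 48.8, 46.5 and 44.8%, SPATA20-204 at 39.5, 40.2 and 35.7% and RGL2-243 at 37.2, 47.0 and 40.3%. All 12 of these values lay above the highest DMSO library of the same member, which the rule that named these members for the combination requires. RAB24-206, of a small GTPase of the autophagy pathway, holds introns of 218 and 86 bases and was at 35.3, 33.9 and 21.4% in DMSO and 53.6, 66.8 and 59.9% in the combination (log2 usage change 1.27, SE 0.38, diffSplice adjusted p = 0.0322, log2 odds adjusted p = 0.0116). In the 16 libraries not low in RRP9 it was not called (log2 usage change 0.91, adjusted p = 0.248). Its mean share with PRT220 alone was 59.7% ± 2.93 (SD, n = 3).

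Against GSK-LSD1 alone, 191 members (1.96%) rose in the combination and 34 (0.349%) fell, where 0.966% and 1.08% of all transcripts were called. By the log2 odds 259 (2.66%) were higher and 13 (0.134%) lower, against 0.723% and 0.476% of all transcripts. The diffSplice calls, 225 in all, came to 125 without GSK-LSD1 B. PAXX-208 (from 40.9 to 68.6% of its gene in the mean), RGL2-243 (from 11.7 to 41.5%), ANKZF1-211 (from 24.7 to 46.7%) and SPATA20-204 (from 16.9 to 38.5%) were among them. The DMSO libraries do not enter the difference taken in this comparison, though they enter the spread that all groups share in the fit. It sets these 4 members with PRT220 against another control group, although it shares the combination libraries with the comparison above. The 4 members were named for this comparison too, by a rule that asks for libraries that do not overlap.

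Against PRT220 alone, 45 members rose in the combination and 24 fell, and 0.492% and 0.632% of all transcripts were called higher and lower. With a term for RRP9 the rises and falls were even, 21 and 20, without library A of the combination 31 members were called in all, and within the 8 libraries low in RRP9 2 were higher and 5 lower. By the log2 odds, 11 members were higher and 4 lower (0.0552% and 0.0485% of all transcripts). RBM47-210, CLIP1-211, SYTL1-203 and ZBTB16-207, described next, were among those called by both tests, though ZBTB16-207 was not called with the term for RRP9 (adjusted p = 0.0882). The interaction of PRT220 and GSK-LSD1, which asks whether the combination differs from the sum of both agents on the log2 scale, was called higher for 9 members and lower for 18, against 0.210% and 0.311% of all transcripts. With a term for RRP9 the order turned, with 14 higher and 5 lower. The log2 odds test called 0 members for the interaction (0.00135% of all transcripts higher and 0.00269% lower), with 200 members higher and 150 lower at an unadjusted p under 0.05, and edgeR's diffSpliceDGE called 9 higher and 18 lower, among which none of the 20 members named for diffSplice was found.

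With GSK-LSD1 alone 41 members (0.421%) rose and 24 (0.247%) fell, against 0.509% of all transcripts higher and 0.498% lower. The excess of rises was not kept with a term for RRP9 (19 higher and 22 lower) or in the 16 libraries not low in RRP9 (21 and 24), and without DMSO C 28 members were called in all. The log2 odds test called 5 higher and 5 lower (0.0364% and 0.0431% of all transcripts), and both tests called 2 higher, SYTL1-203 and ZBTB16-207, and 3 lower, RBM47-210, CLIP1-211 and LTBP3-204. The median log2 usage change was 0.09 over the members and 0.02 over all transcripts.

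SYTL1-203 belongs to SYTL1, an effector of Rab27 in secretion, and keeps an intron of 1727 bases. Its share was 52.5, 46.1 and 38.9% in DMSO, 74.9, 75.9 and 68.9% with GSK-LSD1, 71.9, 69.0 and 62.8% in the combination with PRT220 and 74.2, 68.5 and 75.7% in that with MS023. With PRT220 alone it was at 44.0, 40.9 and 44.4%, inside the DMSO range. The 3 groups with GSK-LSD1 therefore all stood above DMSO, with log2 usage changes of 1.72, 1.27 and 1.72 (diffSplice adjusted p = 3.84e-08, 6.98e-06 and 5.03e-09), while SYTL1 as a gene was at 52.6 ± 7.02 CPM in DMSO and 33.3 ± 0.774 CPM with GSK-LSD1 (SD, n = 3).

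ZBTB16-207 belongs to the transcription factor gene ZBTB16, known as PLZF in myeloid leukaemia. Its share was 16.8, 20.0 and 16.2% in DMSO, 40.5, 35.1 and 36.9% with GSK-LSD1, 46.8, 40.9 and 39.2% with both and 17.3, 16.8 and 18.4% with PRT220. The gene was at 25.4 ± 0.277 CPM in DMSO, 9.84 ± 0.831 CPM with GSK-LSD1 and 7.58 ± 0.689 CPM in the combination (SD, n = 3), so the member made up more of a smaller total. The log2 usage change with GSK-LSD1 was 1.49 ± 0.345 (SE, diffSplice adjusted p = 0.015, log2 odds adjusted p = 0.0174).

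RBM47-210 went the other way. RBM47 encodes an RNA-binding protein, and its retained-intron transcript held 38.9, 41.6 and 33.2% of the gene in DMSO and 6.8, 5.53 and 5.74% with GSK-LSD1 (log2 usage change -3.57, SE 0.609, diffSplice adjusted p = 4.52e-05, log2 odds adjusted p = 2.88e-06). The gene was at 2.71 ± 0.326 CPM in DMSO and 57.9 ± 1.58 CPM with GSK-LSD1 (SD, n = 3), so the share fell within a much larger total. CLIP1-211, of the microtubule end-binding protein CLIP1, was at 36, 35.3 and 37.4% and then 21.4, 21.9 and 21.7%, and LTBP3-204, of a latent TGF-beta binding protein, at 29.3, 21.9 and 18.2% and then 9.74, 9.59 and 9.11%. The genes were higher as well in the mean, CLIP1 at 59.7 and then 124 CPM and LTBP3 at 15.3 and then 47.5 CPM. RBM47-210, CLIP1-211 and ZBTB16-207 hold no whole intron, so their shares do not report on the retention of a whole intron.

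CAMK1-206, of a calcium and calmodulin dependent kinase, had its highest mean share of these groups with both agents, though library C of the combination lay below every GSK-LSD1 library. Its share was 27, 26.9 and 29.4% in DMSO, 34.3, 33.9 and 40.2% with PRT220, 46.8, 44.9 and 42.3% with GSK-LSD1 and 56.9, 50.9 and 41.9% in the combination. The rise in the combination passed both tests (log2 usage change 1.40, SE 0.263, diffSplice adjusted p = 0.000242, log2 odds adjusted p = 0.00119), and that with GSK-LSD1 alone passed diffSplice only (adjusted p = 0.0301, log2 odds adjusted p = 0.0897) and was not called with a term for RRP9 (adjusted p = 0.0699). CAMK1-206 was not called for the interaction.

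DOK1-205 and RPL11-205 were lower in the combination. DOK1-205, of a docking protein of tyrosine kinase signalling, was at 34.7, 21.7 and 17.4% in DMSO and 6.38, 12.9 and 4.24% in the combination (log2 usage change -2.01, SE 0.365, diffSplice adjusted p = 2.72e-05). RPL11-205, of a ribosomal protein, was at 19.4, 22.8 and 40.6% in DMSO and 14.3, 8.84 and 10.4% in the combination (log2 usage change -1.54, SE 0.205, diffSplice adjusted p = 1.82e-08). The library DMSO C, which stands apart for RPL11-205, makes the distance larger in the mean, though the 2 other DMSO libraries also lay above the combination, and processed copies of ribosomal protein genes may share its reads.

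**Figure D3:**
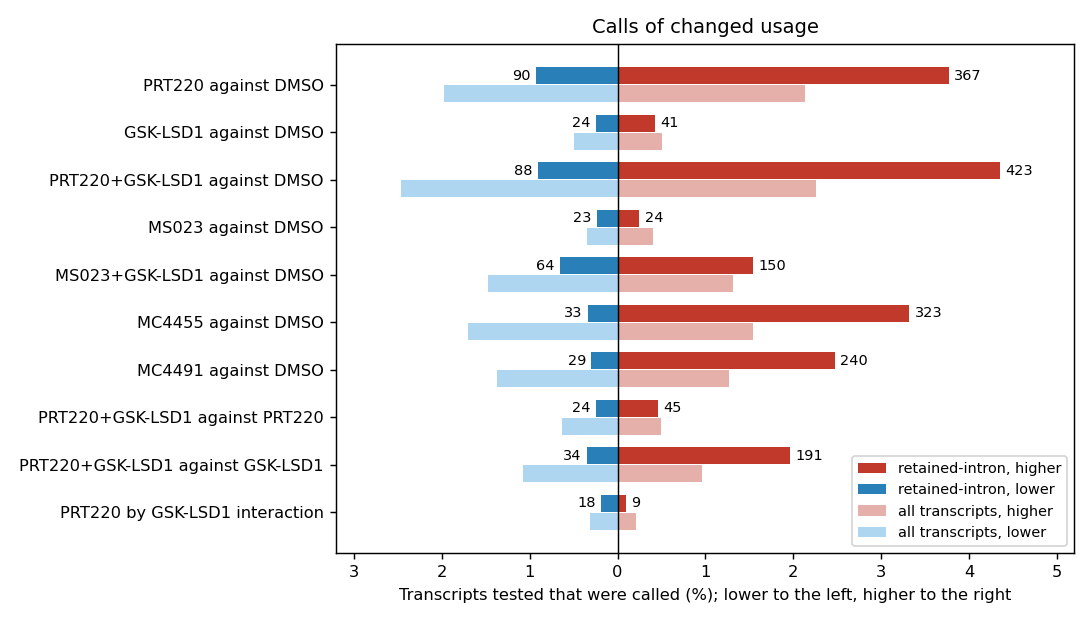
Percent of the 9733 tested members called higher and lower in each of the 10 usage comparisons, beside the percent of all 74228 tested transcripts. With PRT220 3.77% of the members were called higher, against 2.13% of all transcripts, and 0.925% lower, against 1.98%; the members passed a floor on their level and the other transcripts did not, and with MS023 few were called in either direction.

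With MC4455, 323 members (3.32%) rose and 33 (0.339%) fell, against 1.54% of all transcripts higher and 1.70% lower. The median log2 usage change, 0.27 over the members and 0.05 over all transcripts, was the largest of the 7 comparisons with DMSO. The log2 odds test called 398 (4.09%) higher and 7 (0.0719%) lower, against 1.22% and 0.651% of all transcripts. Leaving out MC4455 B, the library with the highest summed share of the 3, brought the diffSplice calls from 356 to 165 in both directions together. With MC4491, 240 (2.47%) rose and 29 (0.298%) fell, against 1.27% and 1.37% of all transcripts, and by the log2 odds 186 (1.91%) and 4 (0.0411%), against 0.562% and 0.338%. Its count fell from 269 to 134 without MC4491 A. Among protein-coding transcripts at the same floor, 2.05% were higher and 3.65% lower with MC4455, and 1.85 and 2.89% with MC4491.

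The members that led with PRT220 were also called higher with these compounds. PAXX-208 was at 60.1, 68.2 and 66.2% with MC4455 and 65.2, 63.7 and 66.2% with MC4491, with log2 usage changes from DMSO of 1.37 and 1.39 (diffSplice adjusted p = 0.000183 and 0.000165). ANKZF1-211 was at 40.1, 38.4 and 37.1% and 36, 38.5 and 37.0%, and SPATA20-204 at 30.5, 26.8 and 32.1% and 28.9, 35.4 and 31.3%. RGL2-243 was at 21.6, 30.6 and 22.7% and 24.1, 27.9 and 24.1%, and its calls (adjusted p = 0.0437 and 0.0382) did not pass the log2 odds test (adjusted p = 0.167 and 0.184). Since doses and times are not known for MC4455 and MC4491, these values stand side by side with those of PRT220 and no difference between the compounds was tested.

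RAB4B-204 was called higher with both MC4455 and MC4491. RAB4B encodes a small GTPase of endosomal recycling. Its retained-intron transcript was at 32, 31.8 and 28.3% in DMSO, 45.1, 52.0 and 48.6% with MC4455, 44.5, 44.3 and 44.5% with MC4491 and 29.5, 27.4 and 30.2% with PRT220. The log2 usage changes were 0.97 (SE 0.126, diffSplice adjusted p = 1.27e-08) and 0.81 (SE 0.126, adjusted p = 4.02e-06), and both passed the log2 odds test. NME7-210, of a component of the gamma-tubulin ring complex, was at 34.6, 33.2 and 32.5% in DMSO, 46.6, 52.0 and 56.9% with MC4455 and 45.4, 46.8 and 48.8% with MC4491. It was called with MC4455 (log2 usage change 1.14, diffSplice adjusted p = 0.02).

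With MS023 alone 24 members rose and 23 fell, 0.247% and 0.236% of those tested and below the 0.403% and 0.353% of all transcripts called. The log2 odds test called 2 members higher and 1 lower, against 0.0148% and 0.0108% of all transcripts, and no member was called by both tests. With a term for RRP9 the order turned, and diffSplice called 16 members higher and 21 lower. The 16 libraries not low in RRP9 keep 1 library of MS023, B, and the 8 low ones keep 1 of DMSO, C. In these 2 sets the median log2 usage change over the members was 0.15 and 0.05, and no counts are given. DNAH1-204, of an axonemal dynein chain, was at 33.4, 35.2 and 51.8% in DMSO and 73.1, 72.4 and 59.9% with MS023 (diffSplice adjusted p = 8.13e-06, log2 odds adjusted p = 0.274). CHTF18-207, of a loader of the replication clamp, was at 11.3, 15.4 and 10.1% and 2.93, 5.74 and 4.4%, with diffSplice adjusted p = 7.13e-06 and log2 odds adjusted p = 0.203, and was called neither in the 16 libraries not low in RRP9 nor in the 8 low ones (diffSplice adjusted p = 0.111 and 0.0776).

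With MS023 and GSK-LSD1 together 150 members (1.54%) rose and 64 (0.658%) fell, against 1.31% and 1.47% of all transcripts. At the same floor as the members, protein-coding transcripts were called more in both directions, 646 of 28663 higher (2.25%) and 820 lower (2.86%), and of all retained-intron transcripts tested 0.938% were higher and 0.404% lower. The log2 odds test called 92 (0.945%) higher and 29 (0.298%) lower, against 0.620% and 0.482%. Without its library C, 96 members were called in all, and within the 8 libraries low in RRP9 0 were higher and 5 lower. SYTL1-203, ZBTB16-207 (51.7, 36.6 and 49.3%) and RBM47-210 (7.99, 6.46 and 8.36%) were among the calls of both tests, at shares like those in the other groups with GSK-LSD1. NME7-210 reached 58.9, 50.2 and 62.5% in this group. RPS18-235, of a ribosomal protein, was at 34.5, 37.8 and 36.5% in DMSO and 14.9, 25.2 and 22.4% here (log2 usage change -1.10, SE 0.133, diffSplice adjusted p = 6.4e-10), and its counts may be shared with copies of the gene.

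**Figure D4:**
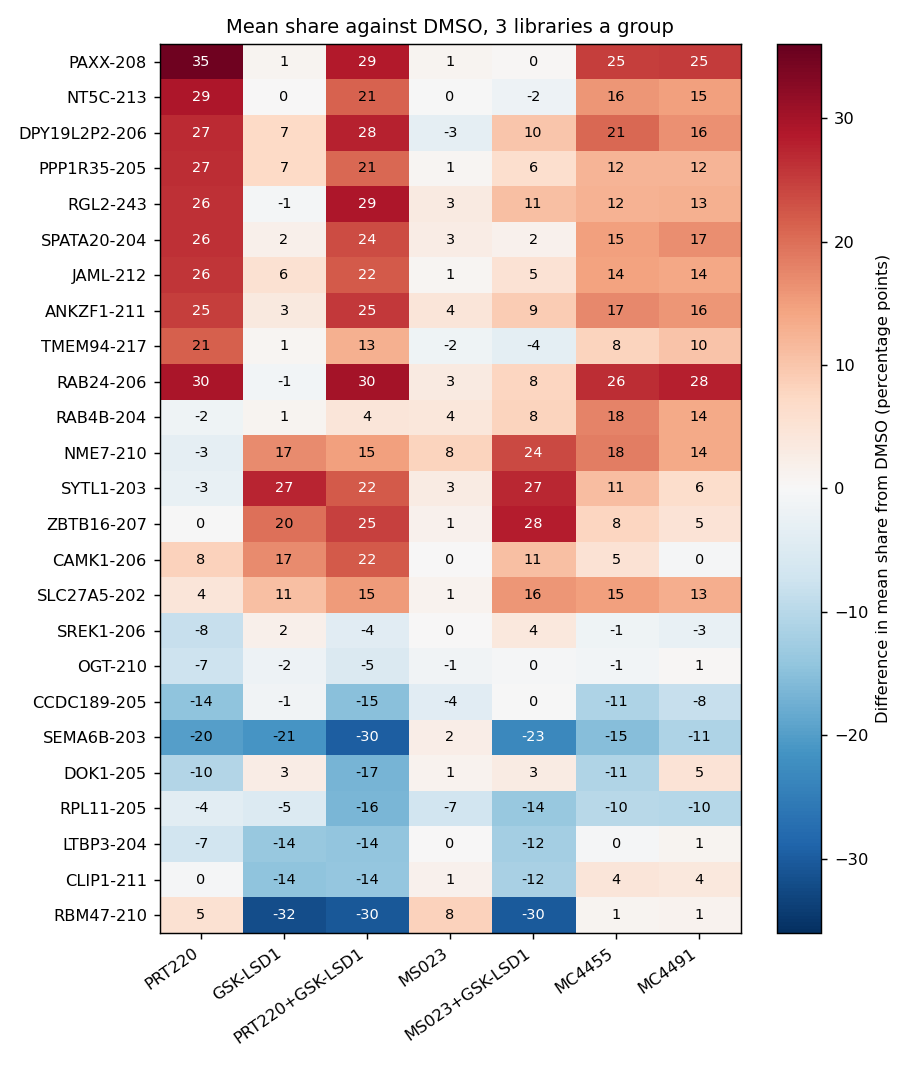
Difference in mean share of the gene from DMSO, in percentage points, for 25 named members (rows) under 7 treatments (columns). PAXX-208 is 35 points above DMSO with PRT220 and 28.6 points with PRT220 and GSK-LSD1, and RBM47-210 dropped by 31.9 points with GSK-LSD1; all columns share the DMSO libraries.

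The sequence of the retained introns was compared between members called higher and all members tested, as a description without a test. With PRT220, 73.0% of the 367 members called higher held a whole intron, against 45.1% of all members tested and 33.3% of the 90 called lower. Put the other way, 268 of 4390 members with a whole intron were called higher (6.10%) and 99 of 5343 without one (1.85%). Members called higher also had more counts (median 3.64 CPM, against 2.09 CPM over all), which makes a call easier. In the combination the shares were 6.24 and 2.79%, with MC4455 4.26 and 2.55%, and with MC4491 3.35 and 1.74%. With MS023 and GSK-LSD1 together the order was reversed, 1.34 and 1.70%.

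The 421 whole introns of members called higher with PRT220 had a median of 202 bases and 59.4% GC, against 272 bases and 54.9% for the 6117 introns of all tested members. The 52 introns of members called lower were as short and as rich in GC, with a median of 194 bases and 58.7%, so these features did not separate the directions. Among members with exactly 1 whole intron, 7.17% of those up to 159 bases, 8.31% of those up to 400 bases and 3.48% of the longer ones were called higher, which splits them into 3 parts of near equal number. By GC content the shares were 4.02% at up to 45.9% GC, 5.97% from there to 60.0% and 8.97% above. In the combination the shares differed less, 5.86, 6.56 and 5.01% by length and 5.33, 5.54 and 6.56% by GC content. With MC4455 they were 3.15, 3.93 and 4.79% by length, highest for the longest introns, and 4.24, 3.91 and 3.72% by GC content.

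The 5′ splice site was described in the same way. The last exon base was G for 79.4% of the introns of all tested members, 67.9% of those called higher with PRT220 and 88.5% of the 52 introns of members called lower. For the combination it was G for 71.0% of the introns of members called higher. Of the 45 introns read for members called lower there, 80.0% had G, near the share over all tested members. Among members with 1 whole intron, 64 of 587 whose last exon base was not G were called higher (10.9%), against 110 of 2160 with G (5.09%). In the combination these shares were 9.37 and 4.86%, with MC4491 3.75 and 2.45%, and with MC4455 they were near each other, 4.09 and 3.94%. By the fifth intron base, 5.87% were called higher with MC4455 where it was not G and 3.32% where it was G, while with PRT220 the shares were 6.44 and 6.30%. The letters GTAAGT opened 8.1% of the introns of all tested members, 3.8% of those called higher with PRT220 and 15.4% of those called lower. Single sites do not follow these shares: PAXX-208 and ANKZF1-211, which rose, each have a site with cag before the intron beside ctcGTGGGT and gcaGTGAGT, and of the members that fell SUN1-206 and SREK1-206 have a site with GTAAGT while OGT-210 (aagGTAGGT) and CCDC189-205 (ccgGTGAGG) do not. A match to these letters is a description of the site and not a measure of its use.

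**Figure D5:**
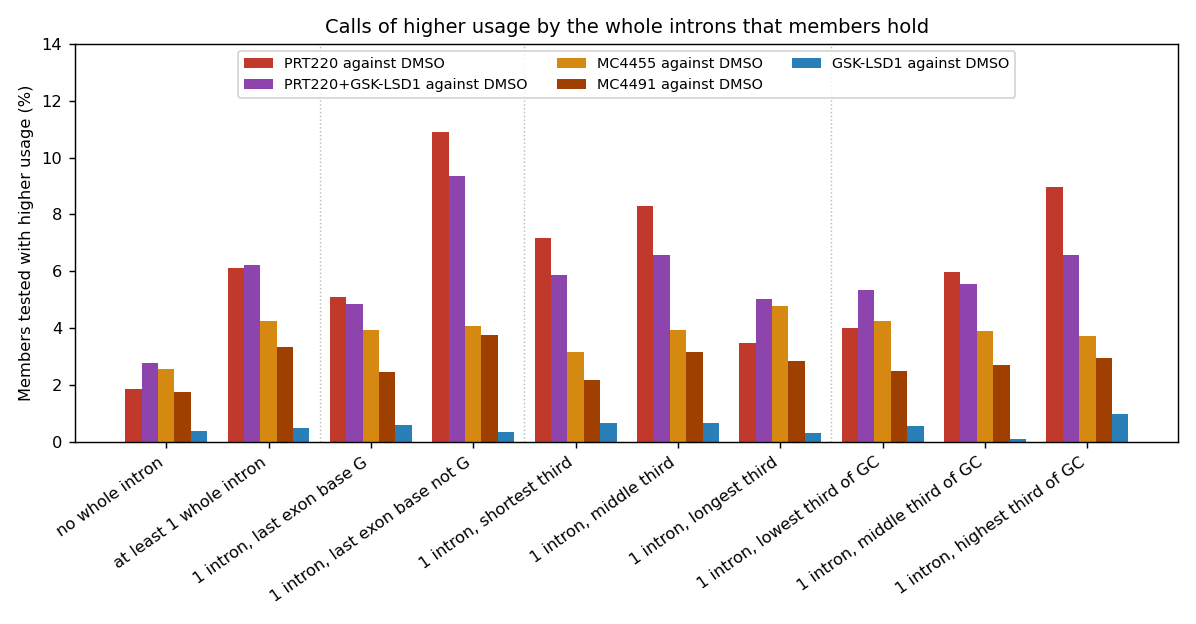
Percent of members called higher in each stratum (presence of a whole intron, and for members with exactly 1 whole intron the last exon base, and 3 classes each of length and GC content), by treatment. For PRT220 the bars run from 1.85% for members without a whole intron to 10.9% for those whose last exon base is not G; the strata carry no test.

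Members were also read by the function of their genes, from lists none of which was tested as a set. Over all members tested, 3.77% rose and 0.925% fell with PRT220, 4.35 and 0.904% in the combination and 3.32 and 0.339% with MC4455, and over all transcripts 2.13 and 1.98%, 2.26 and 2.46%, and 1.54 and 1.70%. Each list is small, so that 1 or 2 members more or less move its share by points, and the counts set no list apart. Of 113 members in 29 genes for hnRNPs and other splicing regulators, 8 rose with PRT220 (7.08%), 9 rose (7.96%) and 1 fell in the combination, and 10 rose with MC4455 (8.85%), with median log2 usage changes of 0.00, 0.19 and 0.18 (0.04, 0.20 and 0.27 over all members). Most of the 113 members were thus not called. EWSR1-217, of the FET family protein EWSR1, was at 12.8, 13.9 and 10.5% in DMSO, 14.9, 17.9 and 19.5% with PRT220 and 21.2, 17.6 and 19.2% in the combination (diffSplice adjusted p = 0.0441 and 0.00189). RBM5-212, of a splicing regulator of apoptosis genes, went from 11.6% ± 1.41 in DMSO to 16.7% ± 1.54 with PRT220 and 17.8% ± 1.46 in the combination (SD, n = 3).

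Of 71 members in 17 genes for SR proteins and related cofactors, 1 rose with PRT220 (1.41%) and 2 rose (2.82%) and 1 fell in the combination, near or below the shares over all transcripts and members. TRA2A-209, of the exonic enhancer-binding protein TRA2A, was at 7.61, 7.51 and 7.84% in DMSO, 13.1, 12.6 and 15.5% with PRT220, 15.3, 13.1 and 12.2% in the combination and 14.3, 14.4 and 14.7% with MC4455. Every one of these treated libraries lay above every DMSO library (diffSplice adjusted p = 0.00234, 0.00413 and 0.000949). SRSF4-208 was at 40.9, 41.8 and 35.9% in DMSO and 53.0, 47.0 and 46.1% in the combination (diffSplice adjusted p = 0.0126, log2 odds adjusted p = 0.131). Of 98 members in 31 genes of the spliceosome core, 5 rose (5.1%) and 2 fell with PRT220, and 3 rose (3.06%) and 1 fell in the combination.

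Members in genes for RNA decay and for translation were called as well. Of 52 members in 21 genes of RNA export and decay, 3 rose with PRT220 (5.77%), 3 in the combination and 5 with MC4455 (9.62%). EXOSC8-210, of an exosome subunit, went from a mean of 30.3% in DMSO to 40.6% in the combination and 44.2% with MC4455 (diffSplice adjusted p = 0.00331 and 4.01e-05), and ZFC3H1-209, of a nuclear exosome targeting factor, from 1.36% to 2.67% with PRT220 and 3.27% in the combination (adjusted p = 0.0312 and 0.00144). Of 53 members in 18 genes of aminoacyl-tRNA synthetases, 3 rose (5.66%) and 1 fell with PRT220 and 5 rose in the combination (9.43%). LARS-210, of the leucyl-tRNA synthetase, went from 0.955% to 2.39 and 2.24% (adjusted p = 0.00214 and 0.00852), so that it stayed a small part of its gene.

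Of 60 members in 23 genes of DNA repair, 2 rose (3.33%, near the share over all members) and 1 fell with PRT220, and 5 rose (8.33%) and 1 fell in the combination. ATM, the kinase that signals double-strand breaks, had one of each. ATM-221 was at 2.46, 1.68 and 1.24% of the gene in DMSO, 5.73, 4.83 and 5.57% with PRT220 and 5.89, 5.15 and 5.39% in the combination (diffSplice adjusted p = 6.18e-06 and 1.9e-06), without overlap. ATM-204 went from 2.79% ± 0.951 to 1.42% ± 0.854 and 1.34% ± 0.201 (SD, n = 3), which passed diffSplice (adjusted p = 0.00617 and 0.00598) and not the log2 odds test (adjusted p = 0.173 and 0.17).

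Of 88 members of chromatin and transcription regulators, 3 rose with PRT220 (3.41%). TAF1D-210, of a subunit of the RNA polymerase I factor SL1, went from a mean of 5.42% in DMSO to 12.4% with PRT220 and 8.42% in the combination (diffSplice adjusted p = 3.91e-10 and 0.00635). Of 81 members of cell cycle and replication genes, 4 rose (4.94%) and 1 fell with PRT220. CDK10-220, of a cyclin-dependent kinase, went from 7.07% to 14.2 and 14.1% (adjusted p = 0.0365 and 0.0159). MCM7-210, of the replicative helicase, was at 0.762, 0.83 and 1.45% in DMSO and 2.92, 3.26 and 3.31% with PRT220 (diffSplice adjusted p = 0.000886, log2 odds adjusted p = 0.835).

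Of 62 members in 25 myeloid and immune genes, 4 rose (6.45%) and 1 fell (1.61%) both with PRT220 and in the combination. CORO1A-211, of the leukocyte actin regulator coronin 1A, was at 7.27, 7.89 and 8.66% in DMSO, 10.3, 10.9 and 11.4% with PRT220 and 12, 10.6 and 10.7% in the combination (diffSplice adjusted p = 0.0166 and 0.0114). TYROBP-208, of the adaptor DAP12, keeps an intron of 149 bases and was at 1.36, 0.385 and 1.17% in DMSO and 2.61, 3.21 and 4.13% with PRT220 (log2 usage change 2.17, SE 0.376, diffSplice adjusted p = 1.15e-05, log2 odds adjusted p = 0.0338). In these libraries TYROBP-208 was thus a small part of its gene.

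Of the members with the most counts, some were called and others were not. RPL4-203, at a mean of 1210 CPM the member with the most counts, held 71.0% ± 1.53 of the counts of the ribosomal protein gene RPL4 in DMSO, 69.6% ± 0.703 with PRT220 and 66.8% ± 0.696 in the combination (SD, n = 3; diffSplice adjusted p for the combination = 0.042, log2 odds adjusted p = 0.105). OAZ1-208, of ornithine decarboxylase antizyme, held 55.2% ± 1.1 in DMSO and between 47.1 and 52.9% in the mean of every treatment (SD, n = 3). It was called lower in 6 of the 7 comparisons with DMSO, among them MC4455 (log2 usage change -0.37, SE 0.073, diffSplice adjusted p = 0.000244, log2 odds adjusted p = 0.0338). HNRNPU-203 keeps 4 introns of HNRNPU, up to 5461 bases, and was at 16.8, 16.5 and 14.2% in DMSO, 21.5, 27.2 and 24.3% with MC4455 and 25.2, 22.2 and 24.3% with MC4491 (diffSplice adjusted p = 5.92e-05 and 0.000131). DDX17-201, of an RNA helicase, held 26.8% ± 1.46 in DMSO and 26.5 to 29% in the mean of the other groups, and was called by diffSplice in none of the 10 comparisons. These counts are not divided by length, so they do not rank the transcripts by number of molecules.

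The level of the host genes did not follow the retained share in 1 direction. Of 309 tested genes hosting a member called higher with PRT220, 101 were themselves higher and 59 lower at an adjusted p under 0.05 in edgeR's quasi-likelihood test, beside 13.8% higher and 11.1% lower among all 16640 genes. Of 376 such genes in the combination, 118 were higher and 130 lower, beside 24.4% and 22.1% of all genes.

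The genes of the splicing machinery were read at the gene level with the same edgeR test, from 7 lists holding 211 genes, of which 210 were tested. With PRT220 47 of them rose and 22 fell, beside 13.8% and 11.1% of all genes. In the spliceosome core and its helicases 19 of 50 rose and 1 fell, and the median log2 fold change of 0.11 compares with 0.00 over all genes. PRPF39, a U1 snRNP factor, rose from 42.0 ± 0.973 to 70.3 ± 7.11 CPM (SD, n = 3, log2 fold change 0.74, SE 0.052, edgeR adjusted p = 2.27e-09). The tri-snRNP proteins PRPF3 (from 52.0 to 84.2 CPM) and DDX23 (from 113 to 173 CPM) rose by 0.70 and 0.62 on the log2 scale. Of 20 SR protein genes 6 rose, and of 30 Sm, LSm and snRNP protein genes 8 rose and 2 fell, while of 42 genes of the hnRNP list 4 rose and 9 fell.

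Of the genes of the targets, PRMT5 was not called with PRT220, and KDM1A was called lower with GSK-LSD1. PRMT5 was at 106 ± 6.37 CPM in DMSO and 111 ± 3.96 CPM with PRT220 (SD, n = 3, edgeR adjusted p = 0.523), and its partner WDR77 fell by 0.30 on the log2 scale (edgeR adjusted p = 0.0203). The Sm protein gene SNRPB (log2 fold change 0.04, adjusted p = 0.72), SRSF1 (-0.02, adjusted p = 0.775) and CLK1, a kinase of SR proteins (-0.02, adjusted p = 0.893), were not called with PRT220 in the edgeR test. KDM1A, which encodes LSD1, was 122 ± 6.56 CPM in DMSO and 108 ± 3.04 CPM with GSK-LSD1 (SD, n = 3, edgeR adjusted p = 0.00711).

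With GSK-LSD1 22 of the 210 genes rose and 36 fell, beside 17.6% higher and 15.0% lower among all genes. SNRPN, a brain-enriched Sm protein gene, fell by 0.51 on the log2 scale (edgeR adjusted p = 1.06e-06). In the combination 44 rose and 67 fell, of 210, beside 24.4% higher and 22.1% lower among all genes. The arginine methylation and snRNP assembly list had 12 of 23 lower there, with GEMIN4, a member of the SMN complex, down by 0.59 on the log2 scale (from 95.3 to 63.8 CPM, edgeR adjusted p = 2.38e-07). The spliceosome core had 20 of 50 higher and 8 lower. U2AF1L4, a relative of the small U2AF subunit, rose by 0.66 and SRSF8 by 0.65 on the log2 scale (edgeR adjusted p = 3.45e-08 and 1.63e-10). With MS023 RBM3 alone rose (log2 fold change 0.20, edgeR adjusted p = 0.0163) and 0 of the 210 fell, beside 0.889% higher and 1.36% lower among all genes; at an unadjusted p under 0.05 14 rose and 13 fell, and DESeq2 called 4 in all.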

How the data were processed

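The values are estimated counts that the authors deposited for 24 libraries, in a table of transcripts and a table of genes. Per the labels' protocols, poly(A)-selected RNA was made into unstranded libraries with a modified TruSeq kit and sequenced with 101-base reads. The submitters' processing notes name Salmon 1.2.1, STAR 2.7.3a, DESeq2 1.28.1, R 4.0.0 and GRCh38, without saying which step each served; the annotation release behind the table is not given in the sources used here. Estimated counts divide reads among transcripts that share exons, so the split between a retained-intron transcript and its spliced partners is itself an estimate, and unstranded reads cannot separate a gene from an antisense partner.

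Transcripts were paired with GENCODE 29 by identifier without version, and 96.6 to 96.8% of the counts of a library were paired. Estimated counts were rounded to whole numbers before the tests. Usage was tested with voom and diffSplice of limma 3.58.1 on all 8 groups in 1 fit, over genes with at least 2 transcripts after edgeR's filter on low counts. Gene counts were tested with the quasi-likelihood test of edgeR 4.0.16, in R 4.3.3. All p-values were adjusted by Benjamini-Hochberg over all features. The tests were checked on simulated data, where transcripts with no counts in some libraries were not looked at apart from the others. How well diffSplice models the spread of such transcripts was therefore not measured. The diffSplice calls, above all for such transcripts, are uncertain and are best read beside those of the log2 odds test. A whole intron is an intron of at least 30 bases of another transcript of the gene, without the retained_intron biotype, lying inside 1 exon of the member.

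The members and the gene lists were chosen with earlier results of these data known. Named members were the 10 in each direction with the largest mean share difference among those called, in genes of at least 5 CPM and with libraries that do not overlap, for PRT220, GSK-LSD1 and both against DMSO, and 5 in each direction for the 6 other contrasts; for the interaction 10 in each direction without the overlap rule; the 10 highest in counts and in share; and up to 3 per gene list called in the combination. This gave 130 members, of which the text describes some. Pathway genes were up to 4 per list and comparison with the largest change among those called, and PRMT5, KDM1A, SNRPB, SRSF1 and CLK1 always. Alternatives were RLE scaling, no filter on low counts, limma on log2 odds, edgeR's diffSpliceDGE, DESeq2 1.42.0 for genes, a replicate block, a term for the libraries low in RRP9, either set of libraries alone, other floors and each library left out. The labels give no separate cultures, so p-values rest on spread that may be technical. Some values are not reported here.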

Additional observations from a re-analysis of the deposited data

Results flagged for a closer look

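The interaction of PRT220 and GSK-LSD1 on usage, a test of whether the effect of one agent differs with the other, was called for 20 of the named members by diffSplice (adjusted p under 0.05), and for 0 of them by limma on the log2 odds of the share. The interaction was positive, that is, usage with both agents was above the sum of the single effects on the log2 scale, for STRN4-211 (6.32), GOLGA8B-203 (5.75), SLC41A3-217 (3.94), MYO1F-211 (3.93), HPS5-210 (3.36), BBS5-205 (3.10), NDUFB5-207 (3.00), PDHB-203 (2.43) and GNB5-204 (1.49). Among those with a negative interaction were U2AF1L4-205 (-5.36), GCDH-203 (-4.64), ZNF692-216 (-4.58), RMND5B-209 (-4.28), LDLRAD4-202 (-4.15), SPOP-222 (-3.73), TMEM120A-206 (-3.69), DDX41-214 (-3.60), EIF3L-213 (-2.99) and DNAH1-204 (-1.37). All PRT220 libraries are low in RRP9, and with a term for it these negative interactions, except that of DNAH1-204, were not called. The diffSplice adjusted p of the lost calls ran from 0.0776 (TMEM120A-206) to 0.972 (LDLRAD4-202, interaction -1.57). The positive interactions listed kept their calls with that term. Among the members given here, STRN4-211 and U2AF1L4-205 had the largest value in each direction, and both had small shares with libraries at 0. STRN4-211 had mean shares of 2.30% in DMSO, 0.589% with PRT220, 0.949% with GSK-LSD1 and 1.81% with both, and was at 0 in PRT220 B and GSK-LSD1 B. U2AF1L4-205 had 1.83, 7.34, 5.33 and 2.93% in the same order and was at 0 in DMSO A and B. GOLGA8B-203 (34.8, 22.5, 26.5 and 34.9%) and LDLRAD4-202 (16.8, 34.7, 20.9 and 23.3%) had larger shares but single libraries at 0, which were PRT220 C and GSK-LSD1 A for the former and library C of the combination for the latter. BBS5-205 (50.7, 24.5, 39.7 and 59.8%) and DNAH1-204 (40.1, 43.4, 57.0 and 37.5%) had large shares throughout. GOLGA8B-203 lies in a family of near-identical copies, so its counts are uncertain.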

How the results depend on the processing

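Counts of members called in both directions depended on the test and on the libraries in the fit. For PRT220, for GSK-LSD1, for their combination, for MS023, for MS023 together with GSK-LSD1, for MC4455 and for MC4491, all against DMSO, and then for the combination against PRT220 and against GSK-LSD1, edgeR's diffSpliceDGE called 50, 28, 52, 26, 36, 30, 30, 20 and 36 members, where diffSplice called 457, 65, 511, 47, 214, 356, 269, 69 and 225. By direction, diffSpliceDGE called 34 higher and 16 lower for PRT220, where diffSplice called 367 and 90. For the combination it called 31 and 21, where diffSplice called 423 and 88. For MS023 with GSK-LSD1 it called 18 and 18, for MC4455 23 and 7, and for MC4491 19 and 11. The log2 odds test called 10 for GSK-LSD1, 3 for MS023, 121 for MS023 with GSK-LSD1, 15 for the combination against PRT220 and 0 for the interaction (27 by diffSplice). Without a filter on low counts 122 were called for GSK-LSD1, 89 for MS023, 115 for the combination against PRT220 and 78 for the interaction. With the term for RRP9, 41 were called for GSK-LSD1 and 41 for the combination against PRT220. Of the 16 libraries not low in RRP9, MS023 holds 1, B, with a summed share of 9.44%, so no count is given for it there. In these 16 libraries 298 were called for the combination. In the 8 low ones 162 were called for PRT220, 42 for the combination, 7 for MS023, 5 for MS023 with GSK-LSD1 and 7 for the combination against PRT220. With only the groups compared in the fit, 34 were called for GSK-LSD1, 17 for MS023, 125 for MS023 with GSK-LSD1 and 349 for the combination against GSK-LSD1. RLE scaling kept all 10 counts within 1.5 times.

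The letters A to C do not pair the libraries: the deviations of 84 same-letter pairs correlated between -0.06 and 0.08, and 6 of 24 libraries correlated best with their own letter. With the letter as a replicate block, 33 members were called for GSK-LSD1, 31 for MS023 and 9 for the interaction, and the other 7 counts stayed within 1.5 times.

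Leaving out each library in turn gave 268 (without PRT220 C) to 384 calls for PRT220, 28 (without DMSO C) to 37 for GSK-LSD1, 296 to 386 for the combination, 25 (without DMSO B) to 41 for MS023, 96 to 221 for MS023 with GSK-LSD1, 165 to 263 for MC4455, 134 to 170 for MC4491, 31 (without library A of the combination) to 55 for the combination against PRT220, 125 to 147 for it against GSK-LSD1 and 17 to 32 for the interaction. In 39 of these 66 fits the count moved by over 1.5 times. Pathway genes called ran from 50 to 58 for PRT220, 38 to 64 for GSK-LSD1, 91 to 105 for the combination and 0 to 2 for MS023. For MS023, DESeq2 and the RRP9 term each called 4 pathway genes, and 0 were called with only the groups compared in the fit.

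The summed share over all retained-intron transcripts, with no floor, was 7.61% in DMSO, then 8.08, 7.96, 8.68, 7.79, 8.44, 9.05 and 8.72% in the order above. The members with the floor made up, of all paired counts, 4.92, 5.24, 5.14, 5.62, 5.05, 5.48, 5.84 and 5.63% in that order, and the median share of a member was 2.78, 3.02, 3.00, 3.31, 2.90, 3.18, 3.39 and 3.31%. With a floor of 1 CPM in the mean, the summed share of host gene counts was 8.80% in DMSO, 9.17% with GSK-LSD1 and 10.1% with MC4491.

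Of 140 calls of named members, 62 passed the log2 odds test and 10 passed edgeR's diffSpliceDGE, while 104 held with the block and 106 with the RRP9 term. The sign turned for EIF3L-213 in the interaction (0.07 by edgeR, and from -4.73 to 0.20 with 1 library left out, the latter without library A of the combination) and for IZUMO4-204 in the combination (-0.08 within the 8 libraries low in RRP9). The cause of these differences was not tested. Depth limits members near 1 CPM most, where a share rests on few counts.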
